A study of Arabidopsis thaliana with 15 samples.

Results

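The 10 genes described here code for enzymes, enzyme subunits and 1 activator of chlorophyll biosynthesis in Arabidopsis thaliana. They were taken by their gene identifiers, as a list of genes of the pathway, from the 32733 genes counted in 15 libraries of rosette leaf RNA. They are HEMA1 (AT1G58290), GUN4 (AT3G59400), CHLH (AT5G13630), CHLI1 (AT4G18480), CHLD (AT1G08520), CHLM (AT4G25080), PORA (AT5G54190), PORB (AT4G27440), PORC (AT1G03630) and CAO (AT1G44446). All 10 passed the filter on low counts in every comparison, so each of them has a test.

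The study examined pentatricopeptide repeat (PPR) proteins, which act on transcripts of mitochondria and plastids, through Col-0 wild type plants and 4 T-DNA insertion lines, with 3 libraries each. Each mutant line carries an insertion in 1 PPR gene: pgn in AT1G56570, mef37-1 in AT5G08305, at3g50420 (stock SK055676) in AT3G50420 and at5g10690 (stock SK137584) in AT5G10690. Homozygous plants were chosen by PCR, and a single insertion allele stands for each gene, so that an effect of the gene and of another change in the same plants cannot be told apart. Plants received no treatment and grew in 16 h of light and 8 h of darkness, at 20 °C by day and 18 °C by night according to the labels. Rosettes were 25.5 days old for 12 libraries, whereas at5g10690 1 and 2 carry a growth stage (Boyes 1.14) and at5g10690 3 carries planting and harvest dates that lie 41 days apart. The titles number the libraries of each line 1, 2 and 3, and a library is named here by its line and number. The series' design text speaks of a single biological replicate for the 15 samples, and no label states what a number stands for, or whether equal numbers share plants, a harvest or an extraction. If the 3 libraries of a line are not separate biological samples, the SEs and p-values below measure technical spread alone, and they hold in any case only for the spread between these libraries.

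The deposited totals ranged from 19555274 to 30901304 counts per library, of which 59.1% to 65.0% lay on plastid genes and 0.879% to 1.56% on mitochondrial genes. A read with several best positions was counted at each of them. The 10 genes together held 26754 to 86461 counts per library, which is 0.103% to 0.322% of all counts. The targeted genes checked the labels only in part. AT5G10690 had 1, 3 and 4 counts in the at5g10690 libraries and 201 to 319 counts in the other 12. PGN (AT1G56570) had 6 to 16 counts in pgn and 19 to 57 elsewhere. MEF37 (AT5G08305) had 12, 17 and 20 counts in the libraries labelled mef37-1 against 8, 8 and 21 in Col-0, and AT3G50420 had 10, 11 and 13 counts in the libraries labelled at3g50420 against 11, 14 and 16 in Col-0. At these low counts, and since an insertion can leave reads outside the disrupted part, the level of the gene does not check the labels of these lines, which are therefore quoted as labels. No other measure of the lines is used here. Leaf markers were abundant (RBCS1A, a small subunit of Rubisco, had at least 33768 counts in every library), and the flower markers AP3, PI and AG had at most 4 counts. Of the root markers, PYK10 ranged from 0 to 1796 counts and SCR from 96 to 174, and WOX5 had at most 1.

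Chlorophyll is made in the plastid from glutamate, while all enzymes of the pathway are encoded in the nucleus. Glutamyl-tRNA reductase (HEMA1) opens the route to 5-aminolevulinic acid, the precursor of every tetrapyrrole. At protoporphyrin IX the route splits: magnesium chelatase, made of the subunits CHLH, CHLI and CHLD and stimulated by GUN4, leads to chlorophyll, whereas ferrochelatase leads to heme. CHLM then methylates Mg-protoporphyrin IX, the light-driven protochlorophyllide oxidoreductases PORA, PORB and PORC form chlorophyllide, and CAO makes the b form of the pigment. Free intermediates are phototoxic, and the genes of the pathway are known for their tight control by light, by the circadian clock and by the state of the plastid.

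The genes lie on 4 of the 5 chromosomes of the TAIR10 build. On chromosome 1 are HEMA1 (chr1:21623700-21626402, minus strand, 3 exons), CHLD (chr1:2696381-2701022, plus strand, 15 exons), PORC (chr1:907523-909650, plus strand, 5 exons) and CAO (chr1:16848308-16851271, minus strand, 7 exons). GUN4 is a single exon at chr3:21948501-21949796 on the minus strand. CHLI1 (chr4:10201672-10203469, minus strand, 3 exons), CHLM (chr4:12876822-12878703, plus strand, 2 exons) and PORB (chr4:13725546-13727440, plus strand, 4 exons) are on chromosome 4. CHLH (chr5:4387307-4392429, minus strand, 5 exons) and PORA (chr5:21990864-21992814, minus strand, 4 exons) are on chromosome 5. No run of 75 bases from the exons of these genes, the length of a read, occurred a second time in the reference genome, so an exact read of PORA, PORB and PORC, or of CHLI1, was not shared with a relative. GUN4 overlaps AT3G59410 by 946 exon bases on the opposite strand, which strand-specific counting separates, and CHLD overlaps AT1G08530 by 42 bases on the same strand.

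Upstream sequences are shown for PORA, PORB and CAO, because PORA differed most and CAO little among the libraries, and because PORA and PORB share a clock-related motif. They were read from the reference genome (NCBI, TAIR10.1, with the same nuclear coordinates) and run 5′ to 3′ up to the base before the annotated start. Capitals mark matches, on either strand, to the G-box CACGTG, the GLK site CCAATC, the evening element AAAATATCT, the CCA1 site AAAAATCT and the I-box GATAAG. No match overlaps another. PORA lies at chr5:21992815-21993064 (minus strand), PORB at chr4:13725360-13725545 (plus strand, shortened where an exon of the neighbouring gene begins) and CAO at chr1:16851272-16851521 (minus strand).
PORA: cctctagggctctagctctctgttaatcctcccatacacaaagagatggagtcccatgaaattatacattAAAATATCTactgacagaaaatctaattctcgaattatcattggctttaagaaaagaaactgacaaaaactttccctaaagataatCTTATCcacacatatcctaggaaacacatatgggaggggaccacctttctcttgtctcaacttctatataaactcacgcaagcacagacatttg
PORB: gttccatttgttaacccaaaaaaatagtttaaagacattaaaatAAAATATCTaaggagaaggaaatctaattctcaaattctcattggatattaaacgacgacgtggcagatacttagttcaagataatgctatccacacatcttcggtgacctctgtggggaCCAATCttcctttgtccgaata
CAO: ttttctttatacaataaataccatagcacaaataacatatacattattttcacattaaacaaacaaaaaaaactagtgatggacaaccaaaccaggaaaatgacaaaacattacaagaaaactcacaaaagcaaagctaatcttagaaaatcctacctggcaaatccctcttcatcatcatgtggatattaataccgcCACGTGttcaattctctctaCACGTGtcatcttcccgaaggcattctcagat

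The evening element starts 180 bases before PORA and 142 bases before PORB, each time within the same 11 bases, taaaatatcta. It occurred in 2 of the 10 genes and in 2.36% of 27443 windows of 250 bases before protein-coding genes. PORA and PORB are relatives, and their windows also share a run of 13 bases, 162 and 123 bases before their starts. The 2 matches are therefore not shown to be separate occurrences. CAO carried the only G-boxes of the 10 windows, 52 and 32 bases before its start, against 6.49% of all windows. The GLK site was present before GUN4 and PORB (10.2% of all windows), the CCA1 site before GUN4 (6.69%) and the I-box before PORA (12.3%). These are matches of letters and not shown sites, and the windows of HEMA1, CHLH, CHLI1, CHLD, CHLM and PORC held none of the 5 motifs. The window before GUN4 overlaps exons of AT3G59410, which reach the annotated start of GUN4. The GLK match 219 bases before PORB lies beyond the shortened sequence shown.

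Levels per length differed widely among the genes. As RPKM (CPM, the counts per 1000000 counts of the library with TMM-scaled library sizes, divided by kilobases of exon), the median over the 15 libraries was 414 for PORB and 218 for CHLH, the porphyrin-binding subunit. It was 79.5 for CHLI1, the ATPase subunit, 48.4 for PORC and 34.6 for HEMA1. Lower medians were those of CHLM (29.1), CHLD (25.8), CAO (22.3), GUN4 (15.1) and PORA (7.67). PORB, CHLH, CHLI1 and PORC each stood above the next gene in 15 of 15 libraries, and CAO above GUN4 likewise. HEMA1 stood above CHLM in 14 libraries, CHLM above CHLD in 11, CHLD above CAO in 14 and GUN4 above PORA in 10, so CHLM and CHLD, and GUN4 and PORA, were not separated beyond the spread over libraries. The aligner was set to find no introns, so reads across exon junctions can be missing, and how many were lost was not measured. On the assumption that all were lost, length was also taken as the positions at which a read fits inside 1 exon. By that length CHLD, with its 15 exons, moved from rank 7 to rank 5 (44.5 RPKM), ahead of HEMA1 and CHLM.

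The value of each gene in each library is given below in CPM, in the order Col-0, pgn, mef37-1, at3g50420 and at5g10690, where the names of the mef37-1 and at3g50420 libraries are those of the labels.

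**Figure D1:**
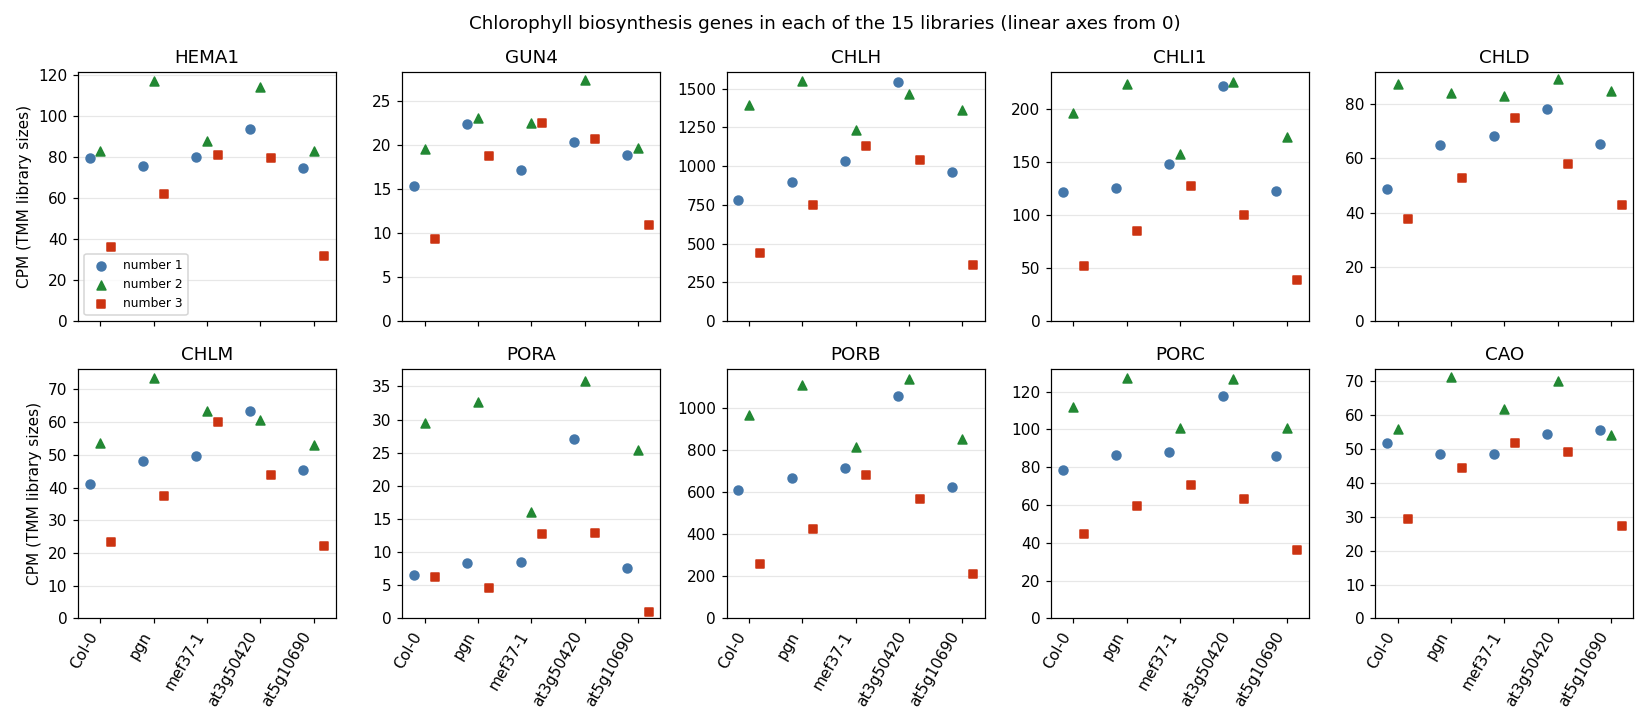
Level in CPM (TMM library sizes, linear axes from 0) of each gene in each of the 15 libraries, by line on the horizontal axis and by library number as colour and shape. Libraries numbered 3 (squares) lie lowest in Col-0 and at5g10690 for every gene, where PORA reaches 1.03 CPM, and close to the others in the libraries labelled mef37-1.

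HEMA1, at the head of the pathway, had 79.5, 75.5, 79.9, 93.6 and 74.8 CPM in the libraries numbered 1. It had 83.0, 117, 87.8, 115 and 83.0 CPM in those numbered 2. In those numbered 3 it had 36.0, 61.9, 81.3, 79.5 and 32.0 CPM. The highest library numbered 3 thus lay just below the lowest numbered 2, and Col-0 3 and at5g10690 3 stood far below all others.

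GUN4, the activator of the chelatase, had 15.3, 22.4, 17.1, 20.4 and 18.9 CPM in the libraries numbered 1. It had 19.5, 23.1, 22.5, 27.4 and 19.6 CPM in those numbered 2. In those numbered 3 it had 9.36, 18.8, 22.5, 20.6 and 10.9 CPM. The numbers overlapped, and within each number the Col-0 library was the lowest.

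Among the chelatase subunits, CHLH ranged from 780 to 1542 CPM in the libraries numbered 1, from 1231 to 1549 in those numbered 2 and from 365 to 1128 in those numbered 3. CHLI1 had 122, 126, 149, 222 and 123 CPM in the libraries numbered 1. It had 197, 224, 158, 226 and 174 CPM in those numbered 2. In those numbered 3 it had 51.6, 85.3, 128, 100 and 38.5 CPM, all below every library numbered 2. CHLD, the subunit that joins the others, was the most even gene among the libraries numbered 2, at 83.0 to 89.3 CPM. It ranged from 48.8 to 78.2 CPM in those numbered 1 and from 37.6 to 74.8 CPM in those numbered 3, so the libraries numbered 2 lay above all others.

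CHLM, the methyltransferase after the chelatase, had 41.2, 48.0, 49.6, 63.3 and 45.4 CPM in the libraries numbered 1. It had 53.6, 73.6, 63.3, 60.8 and 52.9 CPM in those numbered 2. In those numbered 3 it had 23.4, 37.4, 60.1, 44.0 and 22.3 CPM. The library labelled mef37-1 3 reached into the range of number 2.

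PORA, known best as the oxidoreductase of seedlings grown in darkness, varied most, from 35 counts to 924. It had 6.53, 8.42, 8.51, 27.0 and 7.66 CPM in the libraries numbered 1. It had 29.4, 32.6, 16.1, 35.8 and 25.4 CPM in those numbered 2. In those numbered 3 it had 6.21, 4.66, 12.7, 12.9 and 1.03 CPM. Every library numbered 2 lay above every library numbered 3, and the ratio of the highest library to the lowest was 34.8, against 2.37 for CHLD and 5.88 for CHLI1.

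PORB, the main oxidoreductase of green leaves, had 611, 665, 714, 1056 and 624 CPM in the libraries numbered 1. It had 967, 1108, 814, 1137 and 852 CPM in those numbered 2. In those numbered 3 it had 259, 423, 680, 569 and 213 CPM. PORC, an oxidoreductase of mature tissue in the light, ranged from 78.6 to 117 CPM in the libraries numbered 1, from 101 to 127 in those numbered 2 and from 36.1 to 70.6 in those numbered 3. Among the 10 genes, PORC alone had libraries numbered 3 that lay below all others.

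CAO, the oxygenase that forms chlorophyllide b, was among the most even genes. It ranged from 48.3 to 55.5 CPM in the libraries numbered 1, from 54.1 to 71.2 in those numbered 2 and from 27.1 to 51.6 in those numbered 3.

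The first comparison the design asks for is each mutant line against Col-0. No difference of a chlorophyll biosynthesis gene passed the test in any of them. In pgn, edgeR's quasi-likelihood test called 0 of the 10 genes at an adjusted p under 0.05, with 0% of 17521 genes called. At an unadjusted p under 0.05 it called 0 of the 10 and 0.873% of all genes, and DESeq2 and the likelihood ratio test called 0 of the 10 after adjustment, each with 0.00571% of all genes. The log2 fold changes were positive for all 10 genes, from 0.11 (SE 0.88) for PORA to 0.53 (SE 0.27) for GUN4, with a median of 0.25 against -0.01 over all genes. The common sign rested on single libraries: without Col-0 3 it was negative for CHLH, CHLI1, CHLD, PORA, PORB and PORC, and without pgn 2 for the same genes but CHLD, with PORA at -1.08, and without Col-0 1 that of PORA was -0.23. All 95% intervals included 0.

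For the libraries labelled mef37-1 the same test called 0 of the 10 genes, and 0.00569% of 17561 genes. At an unadjusted p the count was 0 of 10, against 1.41% of all genes, and DESeq2 and the likelihood ratio test called 0 of 10 after adjustment, each with 0.0285% of all genes. The log2 fold changes ran from -0.17 (SE 0.63) for PORA to 0.55 (SE 0.30) for CHLM, with a median of 0.30 against -0.02 over all genes. The sign of PORA turned with the replicate number in the model (0.16, SE 0.35), and without Col-0 3 the values of CHLI1 (-0.14), PORB (-0.10) and PORC (-0.14) were negative as well.

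For the libraries labelled at3g50420 the test called 0 of the 10 genes, with 0% of 17599 genes called. At an unadjusted p it was 0 of 10 against 2.91% of all genes, while DESeq2 called 0 of 10 after adjustment, with 0.0227% of all genes, and 1 at an unadjusted p, with 3.15%. The likelihood ratio test called 0 of 10 and 0.0284% of all genes after adjustment. The log2 fold changes were positive for all 10 genes, from 0.34 (SE 0.29) for CAO to 0.85 (SE 0.66) for PORA, which is 1.26-fold and 1.80-fold. Their median was 0.55 against -0.01 over all genes. Without Col-0 3 these values were between 0.09 for CAO and 0.49 for PORA, and without Col-0 2 between 0.51 for CAO and 1.99 for PORA.

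In at5g10690 the test called 0 of the 10 genes, against 0.0114% of 17602 genes, and 0 of 10 at an unadjusted p against 0.312%. DESeq2 and the likelihood ratio test called 0 of 10 after adjustment, each with 0.0227% of all genes. The log2 fold changes were positive for 5 genes and negative for 5, from -0.28 (SE 1.05) for PORA to 0.18 (SE 0.33) for GUN4. Intervals were wide here: that of PORA ran from -2.75 to 2.18, and that of CAO, the narrowest but for GUN4, from -0.82 to 0.84, so a change within these bounds was not detectable. The 4 comparisons share the Col-0 libraries, so signs that agree between lines are not independent.

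Libraries with the same number deviated together, and the model was therefore also fitted with the number as a block. The block narrowed the intervals and added no call among the 10 genes after adjustment, where it called 0.00571% of all genes in pgn, 0.0114% in mef37-1, 0.00568% in at3g50420 and 0.0114% in at5g10690. At an unadjusted p under 0.05 it called 9 of the 10 genes in the libraries labelled at3g50420, against 7.19% of all genes. They were all but CAO, with log2 fold changes from 0.42 (SE 0.16) for PORC to 1.11 (SE 0.32) for PORA, and adjusted p = 0.693 for each. In pgn it called GUN4 (0.58, SE 0.15) and CHLM (0.44, SE 0.12), 2 of 10 against 7.07% of all genes, with adjusted p = 0.703. For the libraries labelled mef37-1 it called CHLM (0.62, SE 0.25, adjusted p = 0.978), 1 of 10 against 3.63%, and in at5g10690 it called 0 of 10 against 1.84%. None of these passed the adjustment over all genes. The 10 genes vary together over the libraries, so the 9 calls for the libraries labelled at3g50420 are not separate events. Among the libraries numbered 1, at3g50420 1 stood apart in HEMA1, CHLI1, PORA, PORB and PORC, and its part in these calls was not tested.

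**Figure D2:**
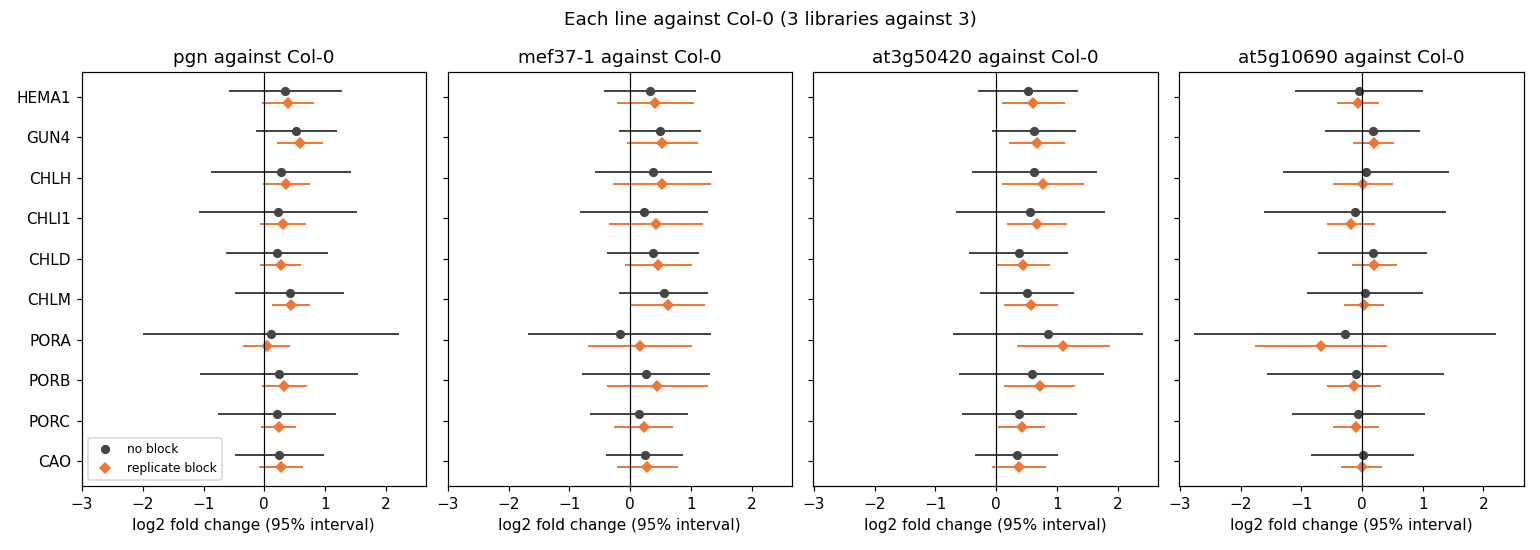
Log2 fold change of each gene in each line against Col-0 with its 95% interval, from edgeR's quasi-likelihood fit of 3 against 3 libraries without (grey circles) and with (orange diamonds) the replicate number as a block. Every grey interval includes 0, and the orange intervals of 9 genes in the libraries labelled at3g50420 lie above 0 without passing the adjustment over all genes.

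A single test of any difference among the 5 lines called 0 of the 10 genes, and 0.0218% of 18358 genes. At an unadjusted p it called 0 of 10 against 1.4%. The smallest p was that of GUN4 (0.152). With the replicate block it called 0 of 10 against 0.0381% of all genes after adjustment, and at an unadjusted p it called GUN4 (0.0224) and CHLM (0.0307), 2 of 10 against 5.58%.

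Libraries that carry the same number differed from the others far more than the lines did. Of the variance of log2 CPM, the number took a median of 53.9% over the 10 genes, the line 21.8% and the rest 22.4%. Over all genes tested these medians were 38.0%, 19.3% and 36.5%. The share of the number ran from 29.0% for GUN4, the only gene for which the line took more (44.5%), to 76.6% for PORC. The other genes of the pathway had a median of 61.7% for the number.

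The numbers were then compared over the 5 lines, with the line as a term of the model. This comparison was made because libraries with the same number had been seen to deviate together in these same data. Its SEs and p-values measure the spread over the 5 lines and not over repeats of what a number stands for. The 10 genes vary together, so their results are not separate events. All 10 genes fell in the libraries numbered 3 against those numbered 2, while 17.2% of 18358 genes fell and 15.2% rose. PORA fell by 2.14 on the log2 scale (SE 0.44, adjusted p = 0.00281), which is 4.40-fold. CHLI1 fell by 1.38 (SE 0.23, adjusted p = 7.5e-04), PORB by 1.29 (SE 0.22), PORC by 1.07 (SE 0.14, adjusted p = 2.1e-04) and CHLH by 1.03 (SE 0.24). HEMA1 fell by 0.80 (SE 0.18), CHLM by 0.77 (SE 0.17), CHLD by 0.73 (SE 0.14), CAO by 0.66 (SE 0.15) and GUN4 by 0.50 (SE 0.15, adjusted p = 0.0252). The median of the 10 was -0.92, against 0.03 over all genes. In 8 of the 10 genes, all but GUN4 and CHLM, every library numbered 3 lay below every library numbered 2, as in 13% of all genes tested.

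The fall was seen within lines and differed in size between them. Within each of the 5 lines the library numbered 3 lay below that numbered 2 for every gene except GUN4, which was lower in 4 of 5 lines. PORB was lower by 2.00 on the log2 scale in at5g10690, by 1.90 in Col-0, by 1.39 in pgn, by 1.00 in the libraries labelled at3g50420 and by 0.26 in those labelled mef37-1. Whether lines differ in this cannot be tested, since each has 1 library per number. Without the at5g10690 line 9 of 10 genes were called lower, against 13.5% of all genes, and GUN4 (-0.42) was not. GUN4 was likewise not called among the mutant lines alone (-0.36), nor without Col-0 2 (-0.42), Col-0 3 (-0.38), at3g50420 2 (-0.49), at5g10690 2 (-0.49) or at5g10690 3 (-0.39).

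Against the libraries numbered 1, those numbered 3 were lower in 5 of 10 genes, with 18.4% of all genes lower and 15.5% higher. CHLI1 fell by 0.93 (SE 0.22, adjusted p = 0.00724), PORB by 0.84 (SE 0.22, adjusted p = 0.0114) and PORC by 0.75 (SE 0.14, adjusted p = 0.00170). HEMA1 fell by 0.55 (SE 0.18, adjusted p = 0.0329) and CHLM by 0.47 (SE 0.17, adjusted p = 0.0493). CAO (-0.40, SE 0.15) missed the threshold with adjusted p = 0.0501. The values of CHLH (-0.55), PORA (-0.64), CHLD (-0.31) and GUN4 (-0.25) did not pass either. PORC was the only gene with every library numbered 3 below every library numbered 1, as in 9.12% of all genes. The calls depended on single libraries. Without mef37-1 3 all 10 genes were called lower, against 18.4% of all genes. The call of HEMA1 was lost, and 3 of 10 genes were left, without Col-0 1 (14.4% of all genes lower), Col-0 3 (15.6%), pgn 3 (14.9%), at5g10690 1 (14.2%) or at5g10690 3 (13.5%). The call of CHLM was lost without any 1 of the 12 libraries other than those labelled mef37-1, with values from -0.53 to -0.35, whereas CHLI1, PORB and PORC were called in all 15 omissions. Without the whole at5g10690 line PORB (-0.68) was not called either.

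Between the libraries numbered 2 and 1 edgeR called 0 of the 10 genes, with 0.692% of all genes higher and 1.75% lower. At an unadjusted p it called 3 of 10, against 21% of all genes, and DESeq2 called 2 of 10 higher after adjustment (PORA and CHLD), with 2.14% of all genes higher. All 10 log2 fold changes were positive, from 0.25 to 0.48 but for PORA, which had 1.49 (SE 0.42, adjusted p = 0.0705) or 2.81-fold. The call of PORA was gained without mef37-1 2, mef37-1 3 or at5g10690 3, with values from 1.45 to 1.74. CHLD (0.42, SE 0.14) was the only gene whose libraries numbered 2 all lay above those numbered 1, as in 3.68% of all genes.

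**Figure D3:**
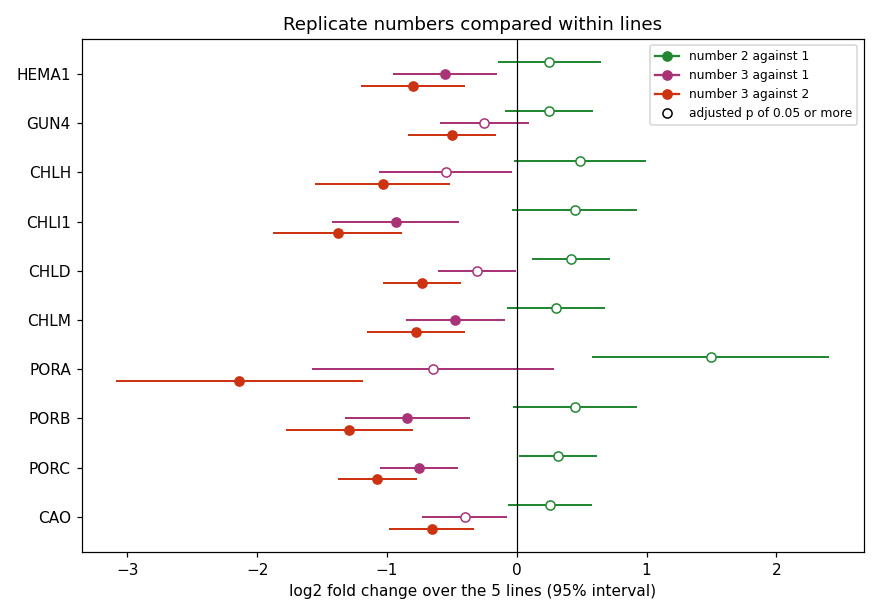
Log2 fold change of each gene between replicate numbers over the 5 lines, with 95% intervals (edgeR quasi-likelihood fit with the line in the model, 15 libraries, 5 per number). Filled points passed an adjusted p of 0.05: all 10 genes for number 3 against 2, 5 genes for 3 against 1 and none for 2 against 1.

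Ratios between the genes were compared on levels per length. PORB made up 84.6% to 89.8% of the summed POR level per length in every library, PORC 8.56% to 13.4% and PORA 0.413% to 2.75%. The share of PORA had a median of 1.07% in the libraries numbered 1, 2.59% in those numbered 2 and 1.66% in those numbered 3, and it was higher in number 2 than in number 1 and number 3 within 5 of 5 lines. GUN4 per CHLH was higher in number 3 than in number 2 in 5 of 5 lines, with medians of 0.0787 and 0.0548. CHLI1 per CHLD was lower in number 3 than in number 2 in 5 of 5 lines, with medians of 2.65 and 3.70. With 5 lines an exact two-sided sign-flip test cannot go below p = 0.0625, which these contrasts reached. After adjustment over the 27 ratio contrasts examined the value was 0.169, so none of them passed.

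The rest of the tetrapyrrole pathway was followed through 29 further genes, of which 28 passed the filter. HEMA3, a further glutamyl-tRNA reductase gene, was near 0 (at most 0.353 CPM). In no line did any of the 28 pass the test against Col-0, where at most 0.0114% of all genes did. Between the libraries numbered 3 and 2, 22 of the 28 fell and 1 rose, with a median log2 fold change of -0.59. Of all genes, 17.2% fell and 15.2% rose. The largest falls were those of HEMC, the porphobilinogen deaminase (-1.32, SE 0.16), DVR, the divinyl reductase (-1.29, SE 0.24), CHLI2, the other CHLI gene (-1.29, SE 0.15), and LCAA, a subunit of the aerobic cyclase (-1.23, SE 0.12). They were followed by GSA2, an aminotransferase of 5-aminolevulinic acid synthesis (-1.19, SE 0.19), and CHLP, which reduces the geranylgeranyl chain (-1.06, SE 0.17). The gene that rose was FC1, a ferrochelatase of the heme branch (0.38, SE 0.10, adjusted p = 0.0150), whereas FC2, the ferrochelatase of green tissue, which is named here after its value was seen, fell by 0.56 (SE 0.09). FC1 had 13.4 to 18.4 CPM in the libraries numbered 2 and 17.2 to 22.1 in those numbered 3. Between the libraries numbered 3 and 1, 18 of the 28 fell and none rose, while 18.4% of all genes fell and 15.5% rose. The falls were led by CHLI2 (-0.99, SE 0.15), HEMB1 of porphobilinogen synthesis (-0.89, SE 0.15), GSA2 (-0.82, SE 0.19), HEMC (-0.80, SE 0.16), DVR (-0.78, SE 0.24) and HEME2, a uroporphyrinogen decarboxylase (-0.77, SE 0.17). Between those numbered 2 and 1, LCAA rose by 0.51 (SE 0.12, adjusted p = 0.0446) and FC1 fell by 0.48 (SE 0.11, adjusted p = 0.0387), while 0.692% of all genes rose and 1.75% fell.

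**Figure D4:**
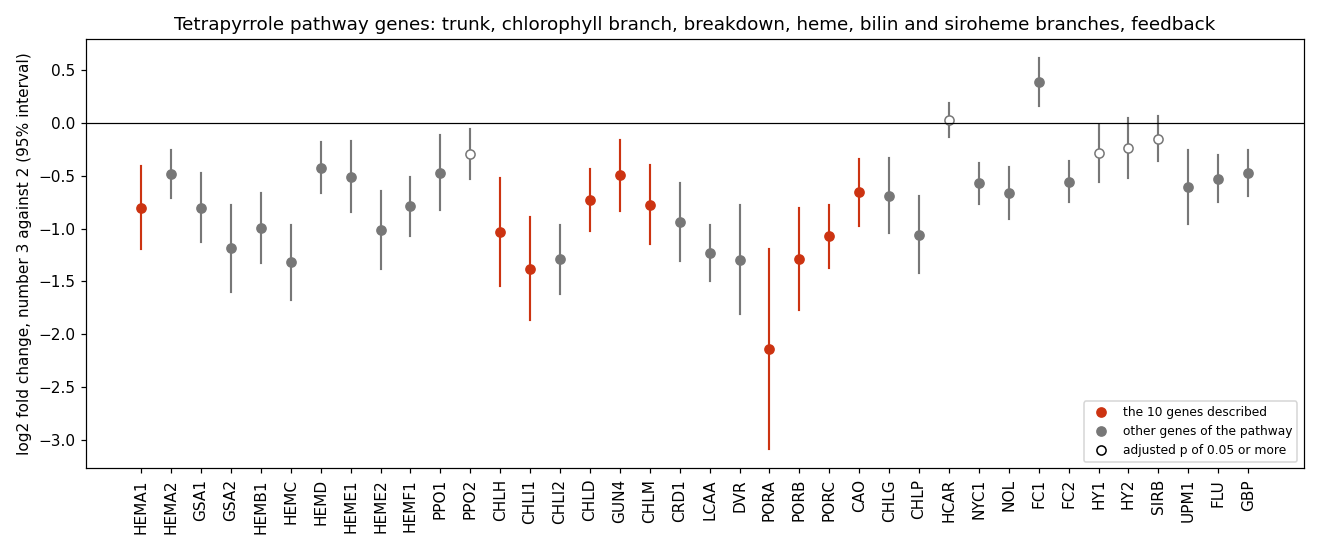
Log2 fold change of number 3 against number 2 over the 5 lines, with 95% intervals, for the 10 genes described (red) and 28 other genes of tetrapyrrole metabolism (grey), placed from the trunk through the chlorophyll branch to breakdown, heme, bilin and siroheme branches and feedback regulators. Open points did not pass an adjusted p of 0.05, PORA reaches -2.14 and FC1 (0.38) is the only gene above 0 that passed.

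Among 8 regulators of the pathway, 3 fell and 1 rose in number 3 against number 2, while 17.2% of all genes fell and 15.2% rose. GLK1, an activator of these genes, rose by 0.98 (SE 0.19, adjusted p = 0.00200), while its relative GLK2, also named after its value was seen, had -0.21 (SE 0.18) and was not called. The GATA factors CGA1 and GNC fell by 1.16 (SE 0.34) and 0.89 (SE 0.14), and GUN1, of plastid signalling, fell by 0.45 (SE 0.09). CGA1 was scarce, with 0.219 to 1.74 CPM over all libraries. Against number 1, GLK1 (0.71, SE 0.19) and PIF3, a light-labile repressor (0.55, SE 0.10), rose, and CGA1 (-1.22, SE 0.33), GNC (-0.49, SE 0.15) and GUN1 (-0.28, SE 0.09) fell. Of all genes, 15.5% rose and 18.4% fell in that comparison. Between number 2 and number 1 edgeR called 0 of the 8, with 2 at an unadjusted p under 0.05, against 21% of all genes. In no line was a regulator called, where at most 0.0114% of all genes were.

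Of 9 clock genes, which vary with the hour of harvest, 3 passed in number 3 against each of the other numbers, a share close to that of all genes given above. In number 3 against number 2, PRR9, expressed in the morning, rose by 1.37 (SE 0.40) and ELF4, expressed in the evening, by 0.46 (SE 0.13), and TOC1, of the evening, fell by 0.45 (SE 0.11). In number 3 against number 1, ELF4 rose by 0.99 (SE 0.13) and GI by 0.27 (SE 0.09), and TOC1 fell by 0.47 (SE 0.11). Between number 2 and number 1 edgeR called 0 of the 9, with 2 at an unadjusted p under 0.05, against 21% of all genes. The summed level of the 9 clock genes was 289 to 325 CPM in number 1, 326 to 362 in number 2 and 301 to 354 in number 3. Their part in the differences of the chlorophyll biosynthesis genes was not tested.

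The mesophyll and leaf markers moved with the chlorophyll biosynthesis genes, whereas the epidermis markers did not and the phloem companion cell marker rose in number 3. All 5 mesophyll and leaf markers fell in number 3 against number 2, from 0.67 for LHCB2.1 to 1.75 for CA1, a carbonic anhydrase, as did 17.2% of all genes. Against number 1, 4 of 5 fell, as did 18.4% of all genes. Their summed level was 7411 to 12385 CPM in number 1, 10471 to 12151 in number 2 and 2358 to 8119 in number 3. None of the 3 epidermis markers was called, at 138 to 218 CPM in number 1, 139 to 163 in number 2 and 142 to 188 in number 3. SUC2, of phloem companion cells, rose by 0.41 (SE 0.13) in number 3 against each of the others, with 47.2 to 80.3, 54.5 to 61.5 and 65.8 to 86.7 CPM in numbers 1, 2 and 3. In the root list, summed to 8.00 to 85.0, 5.75 to 15.3 and 4.23 to 4.98 CPM, PYK10, an abundant root enzyme, fell in number 3 against both other numbers and in number 2 against number 1, SCR fell by 0.38 (SE 0.10) in number 3 against number 2, and WOX5, a defining root tip marker, had at most 1 count. SAG12, the defining marker of leaf senescence, was at 0 counts in all 15 libraries. SAG13 made up the senescence list, with 4.05 to 42.2, 0.0448 to 9.13 and 0.529 to 1.10 CPM, and fell in number 3 against number 1 by 4.42 (SE 0.98). In whole rosettes fewer mesophyll cells and less of these transcripts per cell cannot be told apart, and the part of these markers in the result was not tested.

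The 10 genes varied together over the 15 libraries. The correlation of each gene's log2 CPM with the mean standardised level of the other 9 ran from 0.87 for GUN4 and 0.89 for PORA to 0.99 for PORB. The points share lines and numbers, so the values describe these libraries only. The mean standardised level was lowest in at5g10690 3 (-2.18) and Col-0 3 (-1.82) and highest in at3g50420 2 (1.13) and pgn 2 (1.11). The genes outside the lists whose log2 CPM followed this mean most closely, over 15 libraries, were AT1G11860 (r = 0.990), GAPA-2 (AT1G12900, r = 0.988), HCF244 (AT4G35250, r = 0.988), AT1G76450 (r = 0.986) and HCEF1 (AT3G54050, r = 0.985).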

How the data were processed

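Total RNA of rosette leaves was depleted of ribosomal RNA and sequenced as single stranded-library reads of 75 bases. The authors aligned the reads with STAR to TAIR10 with introns disallowed and kept all best positions of a read, and counted them per gene on the annotated strand with featureCounts 1.5.0-p2. The deposited values are these raw counts, not normalised, for 32733 genes, and no other column of values was used. Depth ranged from 19555274 to 30901304 counts per library, and no pair of libraries of a line agreed within sampling noise.

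Libraries were grouped by genotype label. TMM factors and edgeR 4.0.16 quasi-likelihood tests in R 4.3.3 (genes kept by filterByExpr, Benjamini-Hochberg adjusted p under 0.05 over all genes) compared each line with Col-0 on 6 libraries, and the lines together and the replicate numbers on all 15. Deviations from the line mean correlated between libraries with the same number in 12 of 12 pairs of a mutant line and Col-0 (0.269 to 0.754). Over 24 pairs with other numbers the correlations ran from -0.695 to 0.404 and averaged -0.266. Deviations within a line cancel out, so this negative average largely follows from the first values and is no separate support. Number 2 was less clear. The library at5g10690 2 correlated more with Col-0 1 (0.404) than with Col-0 2 (0.269), and at3g50420 2 likewise (0.315 and 0.275). The numbers were taken to pair the libraries from the data and not from a label. Alternatives were DESeq2 1.42.0, the likelihood ratio test, other scalings and filters, all libraries in 1 fit, the number as a block, omission of each library in turn and a stricter adjusted p of 0.01. The length restricted to positions inside exons and leaving out the at5g10690 line were chosen after seeing the data. The procedure was also run on simulated counts with a single fixed dispersion and no shared deviations by number. These differ from the data, so the run does not give its error rates here. Ratios were compared over 5 lines by exact sign-flip tests. The 10 genes and the lists were chosen with earlier results of these data known. All 10 are named, with the genes called in the other lists up to 6 each by size of change, and the 5 genes outside the lists that correlate best with the mean of the 10. Promoter windows were read from the NCBI genome, whose nuclear gene bounds equal those of the files for 32532 of 32548 genes.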

Additional observations from a re-analysis of the deposited data

Results flagged for a closer look

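Among the 5 libraries numbered 1, at3g50420 1 stood apart from the other 4 in 5 of the 10 genes. It had 93.6 CPM of HEMA1 where the next library had 79.9, and 222 CPM of CHLI1 where the next had 149. The 3 oxidoreductase genes showed the same: 27.0 CPM of PORA against at most 8.51, 1056 CPM of PORB against at most 714, and 117 CPM of PORC against at most 87.8. In each case the gap to the nearest library was above 0.71 of the range of the 5, which is Dixon's critical value for 5 samples. This was so in 5 of 30 groups of a gene and a number, while chance gives about 5% of groups. The share over all genes was not taken, so the count does not show an excess in these genes. The 10 genes vary together, so the 5 groups are not separate events. The same library had the lowest TMM factor of all 15 (0.777, the next being 0.862) and the highest share of plastid counts (65.0%). It also had more FDH, an epidermis marker (77.4 CPM against at most 51.9 in the other libraries numbered 1), and more SUC2 (80.3 CPM against at most 56.9). Their part in the values above was not tested.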

How the results depend on the processing

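The number of chlorophyll biosynthesis genes called in the line comparisons was 0 under all alternatives run. With the replicate block, the numbers of genes called among all were 1 for pgn, 2 for mef37-1, 1 for at3g50420 and 7 for any difference among lines, and the block changed no other call. DESeq2 and the likelihood ratio test called 1 and 1 gene for pgn, 5 and 5 for mef37-1, 4 and 5 for at3g50420, and 4 and 4 for at5g10690. All 15 libraries in 1 fit gave 1, 2 and 3 for the first 3 of these lines, at3g50420 without a filter gave 1, and a threshold of 0.01 gave 0 for mef37-1 and 1 for at5g10690. Leaving out single libraries gave 0 for mef37-1, 0 to 2 for at5g10690 and 2 to 4 for any difference among lines, which had 1 without the at5g10690 line. For number 2 against 1, DESeq2 called 1198 genes, the fit with no line term 858, the mutant lines alone 0 and leaving out libraries 0 to 731. Of the 10 genes, DESeq2 called 2 there and leaving out libraries 0 to 1. For number 3 against 1, the 10 genes gave 3 calls with no line term, 3 in the mutant lines alone, 2 without the at5g10690 line and 3 to 10 without single libraries, and 3900 genes were called without the at5g10690 line. The sign turned with the replicate block for PORA in mef37-1 (0.16) and CAO in at5g10690 (-0.00331), and CAO in at5g10690 had -0.000522 with RLE normalisation, -0.000478 with DESeq2 and -0.00302 with all 15 libraries. The cause was not tested. Leaving out single libraries turned signs in pgn (CHLH -0.067 to 0.79, CHLI1 -0.21 to 0.73, CHLD -0.026 to 0.63, PORA -1.08 to 1.24, PORB -0.16 to 0.74, PORC -0.089 to 0.55) and in mef37-1 (CHLI1 -0.14 to 0.74, PORA -0.52 to 0.96, PORB -0.10 to 0.76, PORC -0.14 to 0.49). In at5g10690 it did so for all 10 (HEMA1 -0.35 to 0.26, GUN4 -0.074 to 0.42, CHLH -0.37 to 0.56, CHLI1 -0.59 to 0.37, CHLD -0.078 to 0.58, CHLM -0.23 to 0.32, PORA -1.69 to 0.83, PORB -0.53 to 0.37, PORC -0.35 to 0.27, CAO -0.23 to 0.27). The lowest values came without Col-0 3 or without number 2 of the mutant line, and the highest without Col-0 2 or at5g10690 3. Depth limits PORA most, with 35 counts in at5g10690 3.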
